A study of Mus musculus with 12 samples.

Results

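Elastic fibre genes were followed through the switch of cartilage pellets from chondrogenic to osteogenic medium. The set held 10 genes of the 28244 gene symbols listed, chosen by symbol for their roles in the fibre: elastin (Eln), the fibrillins (Fbn1 and Fbn2), the fibulins 5 and 4 (Fbln5 and Efemp2), the microfibril-associated proteins (Mfap2, Mfap4 and Mfap5) and the lysyl oxidases (Lox and Loxl1). RNA came from cell pellets of murine mesenchymal progenitors, isolated from the heads and condyles of femurs and tibiae of C57/BL6 pups aged 5 or 6 days. All pellets first spent 7 days in chondrogenic medium. The 12 libraries form 4 groups of 3 replicates, harvested on day 7 before the switch (D7) and on days 8, 10 and 28 (D8, D10 and D28), after 1, 3 and 21 days in osteogenic medium. No pellets kept in chondrogenic medium were sequenced among these libraries, so time in culture and the osteogenic medium cannot be told apart. The labels do not say whether the replicates came from separate cultures or litters, and the errors and p-values measure only the spread between these libraries.

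Elastic fibres give stretch and recoil to skin, vessels, lung and elastic cartilage, and thin fibrillin microfibrils surround cartilage and bone cells. Tropoelastin, the product of Eln, is deposited on a scaffold of fibrillin microfibrils, to which the small glycoproteins encoded by Mfap2, Mfap4 and Mfap5 attach. The fibulins encoded by Fbln5 and Efemp2 bring tropoelastin and the cross-linking enzymes to that scaffold. Lysyl oxidase (Lox) oxidizes lysines of both elastin and collagen, and its relative Loxl1 acts mainly on elastin. Fibrillins also hold TGF-beta and BMP growth factors in the matrix.

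Members differed in the shape of their time courses. The upstream sequences of 3 of them stand here because these genes represent a low point at D10 with return (Mfap2 and Efemp2) and a late high level (Fbln5). Each is the 250 bases before the outermost RefSeq start on GRCm38.p6, 5′ to 3′ on the gene's strand, from chr4:141010174-141010423 (Mfap2, plus strand), chr19:5473696-5473945 (Efemp2, plus strand) and chr12:101819120-101819369 (Fbln5, minus strand). Capitals mark the GC box GGGCGG on either strand, a letter match that is found in 32.7% of the 32851 windows of this length.
Mfap2: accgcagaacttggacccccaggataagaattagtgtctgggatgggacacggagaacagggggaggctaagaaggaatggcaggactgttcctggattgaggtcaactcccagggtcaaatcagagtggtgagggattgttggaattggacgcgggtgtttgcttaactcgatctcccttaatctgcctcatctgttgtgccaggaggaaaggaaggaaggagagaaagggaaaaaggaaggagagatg
Efemp2: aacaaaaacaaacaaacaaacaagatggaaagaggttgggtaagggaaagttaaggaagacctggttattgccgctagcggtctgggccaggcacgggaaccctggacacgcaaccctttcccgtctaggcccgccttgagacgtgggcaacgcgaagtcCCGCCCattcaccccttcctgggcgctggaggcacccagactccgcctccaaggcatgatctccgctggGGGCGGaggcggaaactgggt
Fbln5: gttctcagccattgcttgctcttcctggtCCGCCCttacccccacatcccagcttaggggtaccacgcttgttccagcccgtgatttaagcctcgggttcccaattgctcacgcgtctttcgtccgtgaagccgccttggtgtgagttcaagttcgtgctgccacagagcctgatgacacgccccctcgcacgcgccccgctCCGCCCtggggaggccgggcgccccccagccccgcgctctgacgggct
The Efemp2 window held 2 matches and the Fbln5 window 2, while this Mfap2 window held 0. Windows of other annotated starts differed: the second Mfap2 window held 2 matches, the second Fbln5 window 0 and the 2 further Efemp2 windows 5 each. No window of the 3 held the TATA box TATAAA (12.4% of all windows, both strands) or the AP-1 motif TGANTCA (6.75%, both strands). The GC content was 51.2% for Mfap2, 59.2% for Efemp2 and 65.2% for Fbln5, against a median of 52.4% over all windows. Windows for 4 of the 10 members were in the sequence table used here.

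The deposited value is the log2 of an equalized read count plus 1, where the equalization gave all libraries nearly the same distribution of values. Library totals cannot be read from such values. Depth was therefore read from low values, whose discrete levels follow the read count. Relative depth lay between 0.669 and 0.961 at D10 and between 1.10 and 1.20 at D28. The level of 3 reads was at most 2.87 in any library, and the lowest value of a member was 5.19, so no member came near it in any of the 12 libraries. The cartilage identity of the pellets was checked with 10 chondrocyte markers, all above 3 reads in every library. Their summed log2 level was 21.3 to 21.4 at D7, 20.3 at D10 and 21.3 at D28. That sum is set by Col2a1, whose mean was at the table's maximum (20.92) at D7, D8 and D28 and at 19.87 at D10. Single markers differed in course. Sox9 had means of 12.38 at D7, 12.44 at D10 and 12.25 at D28, while Matn3 had means of 12.66, 8.29 and 11.98 and Cnmd of 14.02, 10.92 and 15.16. Col9a1 was at 16.61, 14.96 and 14.90. The 5 endothelial markers were low, with a summed level between 4.04 and 7.75.

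All 10 members passed the filter on low values. A gene was called where its absolute log2 difference reached 1 and its limma p, adjusted by Benjamini-Hochberg over 17674 genes, was under 0.05. Because the list was drawn up over the same 4 time points with earlier results known, the members' calls and intervals describe them and no p is given. Comparisons that share a group are not independent of each other.

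Eln, which encodes tropoelastin (chromosome 5, 134702593 to 134747323, minus strand, GRCm38), had the widest range of the members. Its log2 values were 16.00, 15.82 and 16.08 at D7 and 14.97, 15.31 and 15.43 at D8. They were 11.59, 12.58 and 11.96 at D10 and 8.58, 8.37 and 8.63 at D28. The groups did not overlap, and each later group was lower than the one before it. From D7 to D8 the log2 difference was -0.73 (standard error 0.19), under the fold limit, and it was -3.19 (standard error 0.19) from D8 to D10. From D10 to D28 it was -3.52 (standard error 0.19). Over the whole osteogenic phase Eln was 174-fold lower (log2 difference -7.44, 95% interval -7.85 to -7.03). In rank among all listed genes, Eln stood between 29 and 35 at D7, between 510 and 1180 at D10 and between 7344 and 7899 at D28. Its share of the summed values of a library went from 0.226% to 0.272% at D7 to between 0.0013% and 0.0015% at D28. Of the 3 D10 libraries, replicate 2 held the highest value. Values as high as those of Eln at D7 and of Lox are set by rank alone: Eln in D7 replicate 1 and Lox in D28 replicate 3 share the value 16.00.

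**Figure D1:**
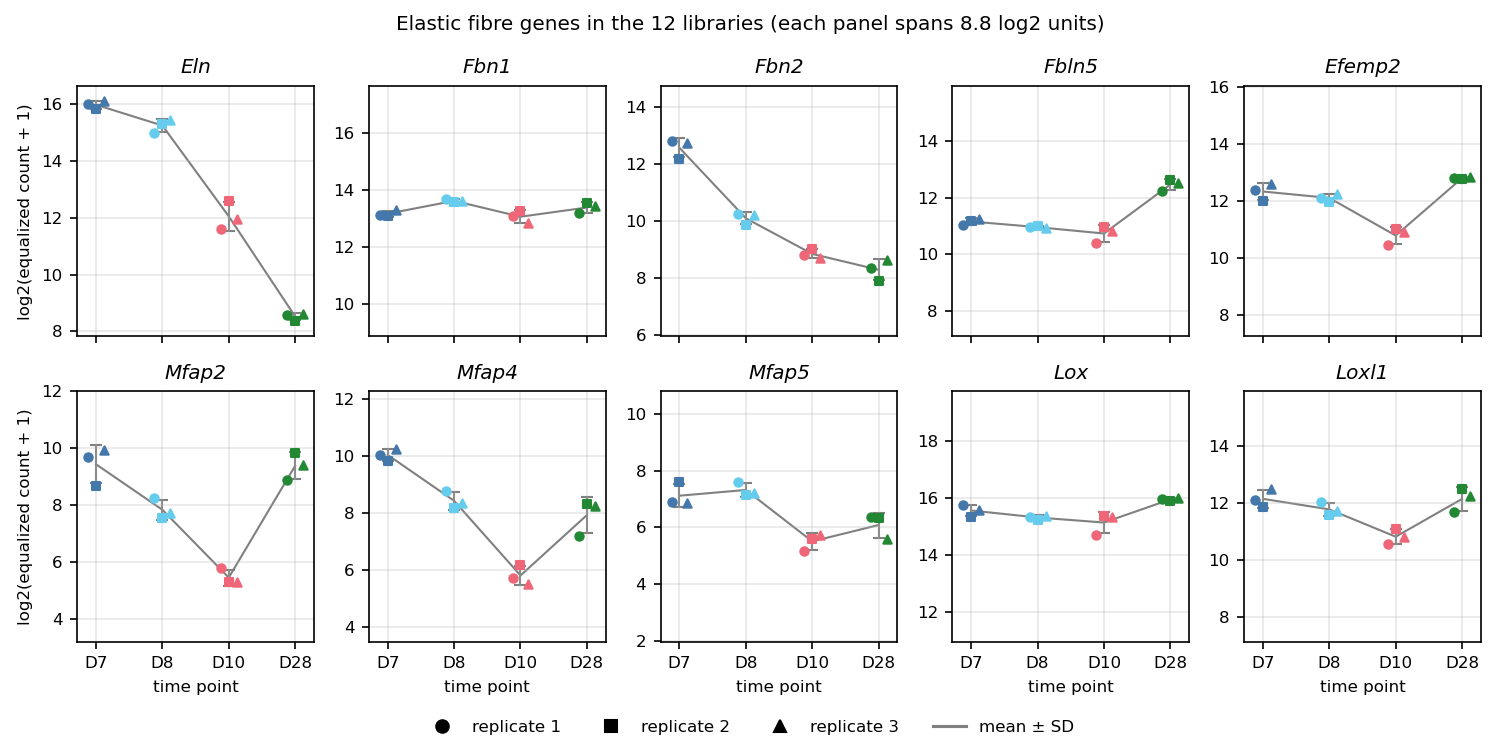
Log2(equalized count + 1) of the 10 elastic fibre genes at D7, D8, D10 and D28; markers are the libraries by replicate, and lines join the group means with SD bars (n = 3), with the same span in each panel. Eln and Fbn2 descend to D28, Mfap2, Mfap4, Efemp2 and Loxl1 are lowest at D10, and Fbn1 and Lox stay within a narrow band.

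The fibrillins, large glycoproteins that form the microfibril backbone, diverged. Fbn1 (chromosome 2, 125300594 to 125507993, minus strand) was at 13.14, 13.09 and 13.29 at D7 and at 13.69, 13.57 and 13.61 at D8. It was at 13.09, 13.28 and 12.83 at D10 and at 13.19, 13.54 and 13.43 at D28. The D8 libraries lay above all others of this gene, and the remaining groups overlapped with D7. No comparison of Fbn1 reached the fold limit, and the log2 difference of D28 from D7 was 0.22 (95% interval -0.06 to 0.49). Fbn2, the fibrillin most used in embryonic matrix (chromosome 18, 58008623 to 58210487, minus strand), was at 12.82, 12.19 and 12.74 at D7 and at 10.25, 9.86 and 10.21 at D8. It was at 8.82, 9.03 and 8.72 at D10 and at 8.37, 7.89 and 8.63 at D28. Fbn2 had the largest first-day difference of the members, a log2 difference of -2.48 (standard error 0.19), which is 5.56-fold. A further -1.25 (standard error 0.19) followed by D10, and D28 lay -0.56 (standard error 0.19) from D10, a difference within the fold limit although the libraries did not overlap. Against D7, Fbn2 was 19.5-fold lower at D28.

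Because the transcripts are long, the balance of the fibrillins was also set per kilobase of exon (12004 bases for Fbn1 and 11041 for Fbn2). The log2 ratio of Fbn1 to Fbn2 within a library was 0.47 ± 0.29 at D7 and 3.40 ± 0.17 at D8 (SD, n = 3). It was 4.09 ± 0.09 at D10 and 4.98 ± 0.48 at D28. At D7 the lowest ratio was 0.21 and the highest 0.77, and all later libraries lay at 3.28 or above. In folds, Fbn1 was 1.38 times Fbn2 at D7 and 31.5 times at D28.

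Of the genes of the microfibril-associated proteins, Mfap2 and Mfap4 were lowest at D10, while the D10 and D28 libraries of Mfap5 overlapped. Mfap2, which encodes MAGP-1, a fibrillin-binding glycoprotein (chromosome 4, 141010418 to 141015984, plus strand), was at 9.69, 8.68 and 9.92 at D7 and at 8.23, 7.53 and 7.72 at D8. It was at 5.77, 5.28 and 5.30 at D10 and at 8.89, 9.82 and 9.42 at D28. The D10 libraries lay below all others, and D28 overlapped with D7. Mfap2 was 15.8-fold lower at D10 than at D7 (log2 difference -3.98, standard error 0.30) and 15.2-fold higher at D28 than at D10 (3.93, standard error 0.30). The log2 difference of D28 from D7 was -0.05 (95% interval -0.70 to 0.59), and its sign was the other way with median-of-ratios scaling and without D7 replicate 1, D7 replicate 3 or D28 replicate 1. D7 replicate 2 was the lowest of its group by about 1 log2 unit.

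Mfap4, whose product binds tropoelastin and fibrillin (chromosome 11, 61485431 to 61488900, plus strand), had log2 values of 10.05, 9.82 and 10.26 at D7 and 8.78, 8.17 and 8.34 at D8. They were 5.73, 6.19 and 5.51 at D10 and 7.21, 8.33 and 8.25 at D28. The libraries of D28 lay above those of D10 and below those of D7, so the return was partial. The log2 difference was -4.24 (standard error 0.27) for D10 against D7, 2.12 (standard error 0.27) for D28 against D10 and -2.11 (standard error 0.27) for D28 against D7. Mfap2 and Mfap4 were at like levels per kilobase at D7, with a log2 ratio of 0.04 ± 0.46, and stood 2.11 ± 0.26 apart at D28 (SD, n = 3).

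Mfap5, which encodes MAGP-2 (chromosome 6, 122505845 to 122529290, plus strand), was the lowest member per kilobase at D7. Its log2 values were 6.91, 7.58 and 6.86 at D7 and 7.59, 7.16 and 7.21 at D8. They were 5.19, 5.59 and 5.75 at D10 and 6.35, 6.33 and 5.58 at D28. D7 and D8 overlapped, as did D10 and D28, and the D7 and D8 libraries lay above those of the later days. The log2 difference was -1.81 (standard error 0.28) for D10 against D8 and 0.58 (standard error 0.28) for D28 against D10. For D28 against D7 it was -1.03 (standard error 0.28), a call that rests on the exact scale: it was -0.97 and not called with median-of-ratios scaling, -0.94 with a pseudocount of 10, -0.80 without D7 replicate 2 and -0.78 without D28 replicate 3.

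The fibulin genes among the members ended highest at D28. Efemp2, which encodes fibulin-4, needed for lysyl oxidase to reach elastin (chromosome 19, 5473954 to 5482517, plus strand), was at 12.38, 12.01 and 12.60 at D7 and at 12.10, 11.96 and 12.25 at D8. It was at 10.44, 11.00 and 10.91 at D10 and at 12.81, 12.76 and 12.84 at D28. The D10 libraries were the lowest, and the D28 libraries were the highest of the 12. The log2 difference was -1.55 (standard error 0.16) for D10 against D7 and 2.02 (standard error 0.16) for D28 against D10. D28 was above D7 by 0.47 (standard error 0.16), under the fold limit.

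Fbln5, which encodes fibulin-5, a tropoelastin-binding protein (chromosome 12, 101746565 to 101819055, minus strand), was at 11.03, 11.19 and 11.26 at D7 and at 10.95, 10.99 and 10.93 at D8. It was at 10.41, 10.97 and 10.82 at D10 and at 12.24, 12.63 and 12.51 at D28. The D28 libraries lay above all others of this gene, and the earlier groups were close together. Fbln5 was the only member called higher at D28 than at D7, with a log2 difference of 1.30 (95% interval 1.01 to 1.59), or 2.46-fold. Per kilobase, Efemp2 exceeded Fbln5 4.55-fold at D7 and 2.56-fold at D28.

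Lox, the main cross-linking enzyme of elastin and collagen (chromosome 18, 52516067 to 52529867, minus strand), kept a high level throughout. It was at 15.75, 15.34 and 15.60 at D7 and at 15.34, 15.23 and 15.38 at D8. It was at 14.72, 15.38 and 15.32 at D10 and at 15.96, 15.91 and 16.00 at D28. The groups D7, D8 and D10 overlapped, and the D28 libraries were the highest. The log2 difference of D28 from D10 was 0.81 (standard error 0.18), without a call, and D28 exceeded D7 by 0.39 (95% interval 0.00 to 0.78). In rank, Lox stood between 31 and 33 at D28.

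Loxl1, a lysyl oxidase tied to elastic fibre renewal (chromosome 9, 58287738 to 58313186, minus strand), was at 12.11, 11.84 and 12.48 at D7 and at 12.03, 11.59 and 11.70 at D8. It was at 10.56, 11.08 and 10.81 at D10 and at 11.66, 12.50 and 12.26 at D28. The D10 libraries lay below all others, while D28 overlapped with D7. The log2 difference was -1.33 (standard error 0.20) for D10 against D7, 1.33 (standard error 0.20) for D28 against D10 and 0.00 (95% interval -0.44 to 0.43) for D28 against D7. For D10 against D8 it was -0.96 (standard error 0.20), just within the fold limit. It was past it without D8 replicate 2 (-1.05) and without D10 replicate 2 (-1.09).

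**Figure D2:**
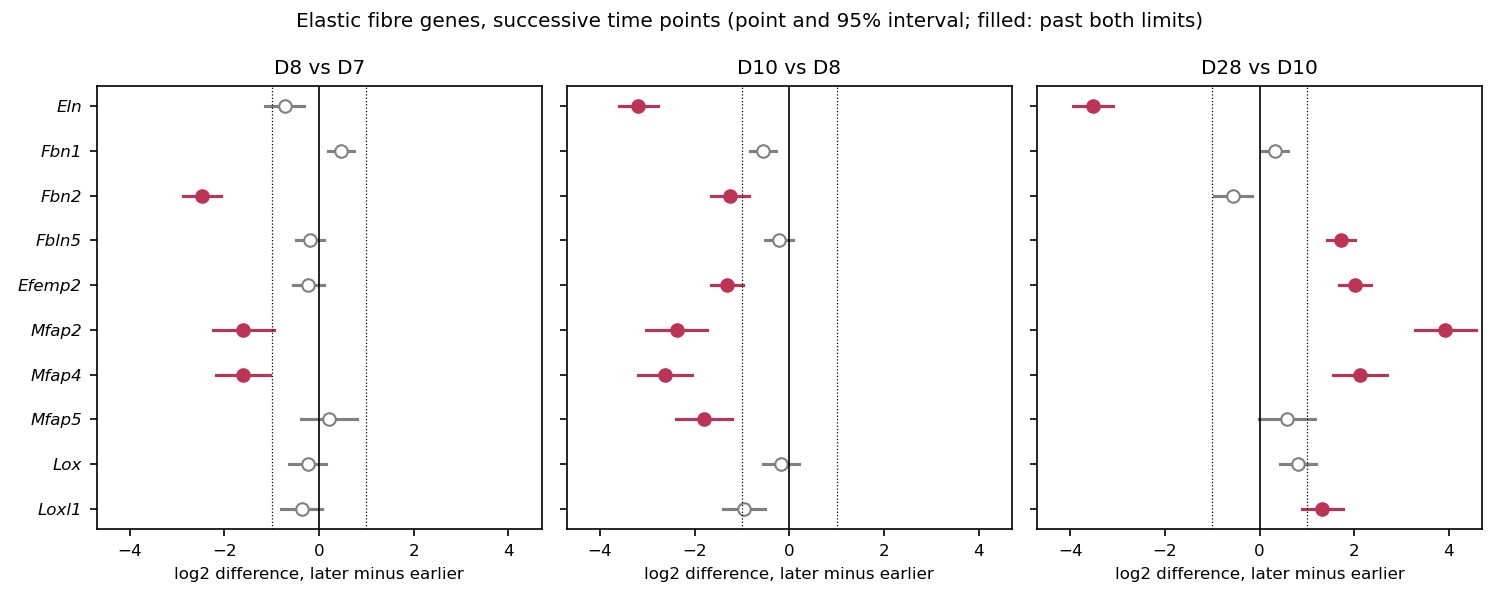
Log2 difference (later minus earlier) of each member for D8 vs D7, D10 vs D8 and D28 vs D10, with the 95% interval of the limma estimate; filled points are past both limits, and dotted lines mark an absolute log2 difference of 1. Calls in the first 2 steps are all below 0, and in the last step 5 of the 6 calls are above 0, with Eln at -3.52 as the exception.

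Counted by step, 3 of the 10 members (Fbn2, Mfap2 and Mfap4) were called lower at D8 than at D7 and 0 higher. Among all genes tested, 7.04% were called, 3.23% higher and 3.81% lower. The libraries did not overlap for 6 members, beside 37.1% of all genes. The members' median log2 difference was -0.31, against 0.03 over all genes tested. For D10 against D8, 6 were called lower (Eln, Fbn2, Efemp2, Mfap2, Mfap4 and Mfap5) and 0 higher. Among all genes 9.66% were called, 4.08% higher and 5.58% lower. The libraries of 8 members did not overlap, beside 44.0% of all genes. The median was -1.29, against 0.00 over all genes. For D10 against D7, Loxl1 joined these 6, and 7 members were lower and 0 higher, beside 18.9% called, 8.50% higher and 10.4% lower among all genes. No overlap was seen for 8 members, beside 47.5% of all genes. The median was -1.58, against 0.05. For D28 against D10, 5 members were called higher (Fbln5, Efemp2, Mfap2, Mfap4 and Loxl1) and 1 lower (Eln), beside 27.5% called, 13.8% higher and 13.7% lower. Libraries were apart for 8 members, beside 59.4% of all genes. The median was 1.07, against -0.10. For D28 against D7, 1 member was called higher and 4 lower (Eln, Fbn2, Mfap4 and Mfap5), beside 17.3% called, 8.63% higher and 8.66% lower. Groups did not overlap for 7 members, beside 46.9% of all genes, and the median was -0.03, the same as over all genes. These counts describe a list chosen with the data known.

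Levels of different genes were compared per kilobase of exon, on the log2 scale of equalized counts. At D7 the order from high to low was Eln (14.02), Lox (13.31), Efemp2 (10.74), Loxl1 (10.42), Fbn1 (9.59), Mfap2 (9.24), Mfap4 (9.20), Fbn2 (9.12), Fbln5 (8.56) and Mfap5 (6.51). The library ranges of neighbours overlapped for Efemp2 and Loxl1 and from Fbn1 down to Fbn2, so their order is not resolved. At D28 the order was Lox (13.70), Efemp2 (11.21), Loxl1 (10.42), Fbln5 (9.86), Fbn1 (9.80), Mfap2 (9.19), Mfap4 (7.08), Eln (6.58), Mfap5 (5.47) and Fbn2 (4.83). There the ranges of neighbours overlapped from Loxl1 down to Mfap2, for Mfap4 and Eln, and for Mfap5 and Fbn2. Eln thus stood first of the 10 at D7 and, level with Mfap4 within the spread, near the end of the order at D28. Of the members' summed level per kilobase, Eln made up 50.5% ± 1.7 at D7 and 43.4% ± 4.8 at D8 (SD, n = 3), then 10.1% ± 1.7 at D10 and 0.484% ± 0.052 at D28. Lox made up 30.9% ± 2.1, 37.0% ± 2.3, 69.0% ± 3.0 and 67.1% ± 3.1 at the same time points.

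**Figure D3:**
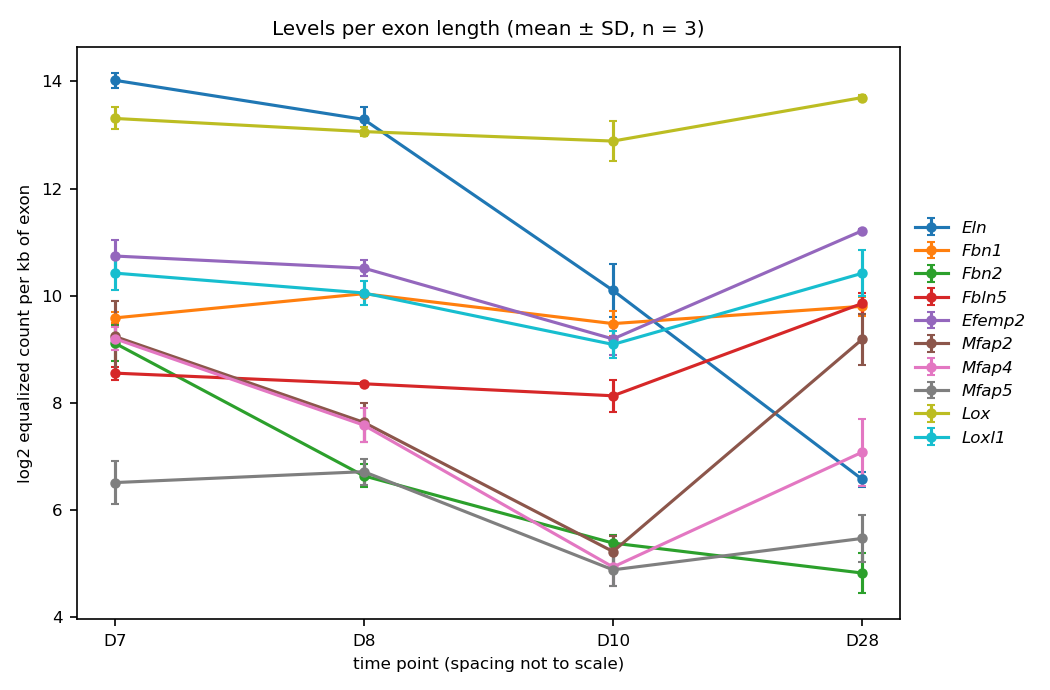
Mean log2 equalized count per kilobase of exon for each member at the 4 time points, with SD bars (n = 3). Eln is highest at D7 (14.02) and among the lowest at D28 (6.58), while Lox stays between 12.9 and 13.7.

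The balance of enzyme to substrate and of elastin to its scaffold, taken within each library, differed between time points. The log2 ratio of Eln to Fbn1 per kilobase was 4.43 ± 0.06 at D7 and 3.25 ± 0.29 at D8 (SD, n = 3). It was 0.62 ± 0.42 at D10 and -3.23 ± 0.28 at D28, with no overlap between time points. The log2 ratio of Lox to Eln was -0.71 ± 0.13 at D7 and -0.23 ± 0.25 at D8, and it was 2.79 ± 0.28 at D10 and 7.12 ± 0.10 at D28 (SD, n = 3). In folds, Eln was 1.64 times Lox at D7 and Lox was 139 times Eln at D28. For Mfap2 against Fbn1 the log2 ratio was -0.34 ± 0.58 at D7, -4.25 ± 0.36 at D10 and -0.62 ± 0.29 at D28. The ranges of D7 and D28 overlapped for this last pair, and those of D10 lay apart from both.

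**Figure D4:**
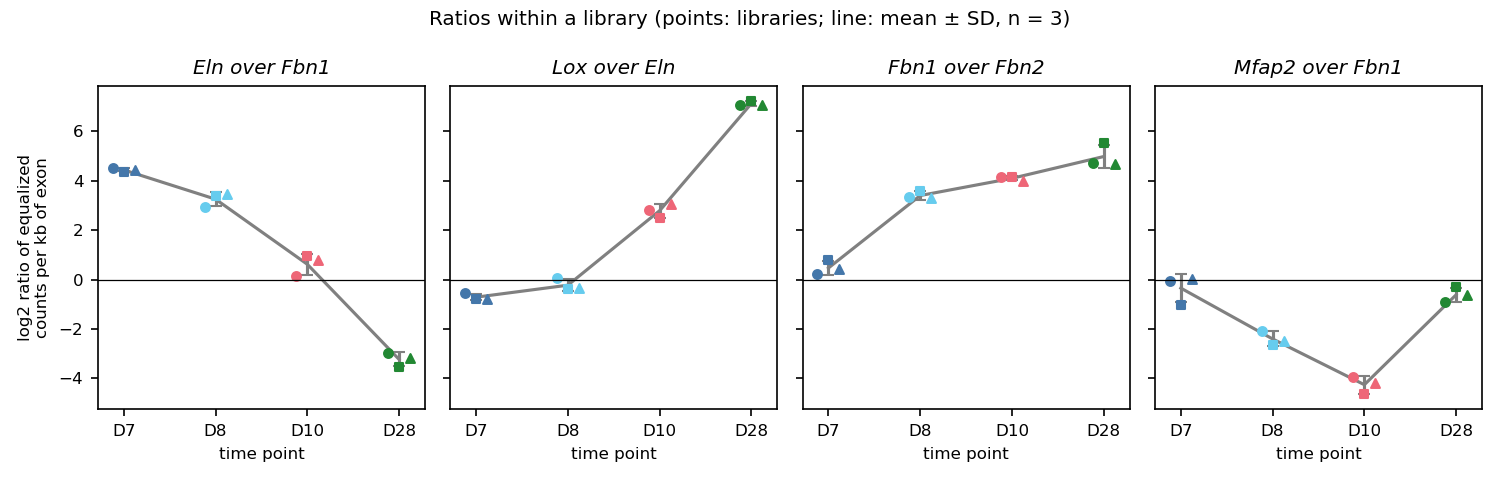
Log2 ratio of equalized counts per kilobase of exon within each library for Eln over Fbn1, Lox over Eln, Fbn1 over Fbn2 and Mfap2 over Fbn1; points are libraries and lines join the means with SD bars (n = 3). Eln over Fbn1 crosses 0 between D10 and D28, and Mfap2 over Fbn1 reaches -4.25 at D10 and returns near its D7 level.

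The genes whose values followed Eln most closely over the 12 libraries were Ephb2 (Pearson r = 0.997), Tbc1d1 (0.992), Tgfbi (0.985), Col7a1 (0.984) and Chsy1 (0.983), among 13254 genes ranked. Tgfbi, which encodes a TGF-beta-induced matrix protein, had mean log2 values of 12.60 at D7 and 6.59 at D28. Col7a1, the anchoring fibril collagen, had means of 10.96 and 7.13. Of the other members, Fbn2 came nearest to Eln (r = 0.847, place 627) and Fbln5 was the farthest (r = -0.707). The genes nearest to Fbn1 were Man2c1 (r = 0.930), Ints3 (0.923), Nudt1 (0.922), Pmf1 (0.891) and Tmed10 (0.889). The libraries share 4 time points, so these likenesses mostly compare group means and are given as a description.

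Other genes of the same pathway were taken from a list of 44 genes that are not members, of which 43 were tested. Mmp7 was at 0 in every library. Genes of microfibril and elastin assembly (23 listed) showed 1 higher and 5 lower at D8 against D7, and 0 higher and 9 lower at D10 against D7. At D28 against D10, 8 were higher and 7 lower, and at D28 against D7, 5 were higher and 10 lower. Among all genes tested the shares higher and lower were 3.23% and 3.81% at D8 against D7, 8.50% and 10.4% at D10 against D7, 13.8% and 13.7% at D28 against D10, and 8.63% and 8.66% at D28 against D7. Adamtsl2, whose product binds fibrillin-1, went from 11.95 ± 0.25 at D7 to 9.16 ± 0.43 at D10 and 5.36 ± 0.61 at D28 (SD, n = 3). From D7 to D28 it fell by 6.59 on the log2 scale (limma, standard error 0.29, adjusted p = 2.8e-10). Its fall at D8 (-1.11) was not called without D8 replicate 1 (-0.85), nor without the variance trend. Ltbp4, which binds fibulin-5 and promotes elastin deposition, was at 10.07 ± 0.15 at D7 and 7.23 ± 0.52 at D28 (SD, n = 3). On the log2 scale it fell by 2.83 (limma, standard error 0.20, adjusted p = 3.3e-08). Its relatives Ltbp1 and Ltbp2 fell by 1.79 and by 1.22 over the same days (limma, adjusted p = 3.5e-07 and 8.8e-06), and Ltbp3 had a difference of -0.82, under the fold limit.

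Among the other assembly genes named, Efemp1 and Fbln1 had a called fall to D10 and a called rise after it. Efemp1, which encodes fibulin-3, was at 7.65 ± 0.35 at D7, 5.58 ± 0.56 at D10 and 10.98 ± 0.26 at D28 (SD, n = 3), and it rose 42.3-fold from D10 (log2 difference 5.40, limma, standard error 0.25, adjusted p = 1.9e-10). Fbln1, whose product is a fibulin found within elastic fibres, fell by 2.52 from D7 to D10 (limma, adjusted p = 1.1e-07) and rose by 1.69 from D10 to D28 (limma, adjusted p = 3.4e-06). Fbln7 was not called before D10 and rose by 2.79 to D28 (limma, standard error 0.14, adjusted p = 2.7e-10). The metalloprotease genes Adamts6 and Adamts17, whose family acts on fibrillin microfibrils, fell at different times. Adamts17 fell by 2.78 at D8 against D7 (limma, adjusted p = 7.6e-06), and Adamts6 fell by 3.35 between D10 and D28 (limma, adjusted p = 9.2e-07). Emilin3 fell by 2.53 from D8 to D10 (limma, standard error 0.58, adjusted p = 0.0041), where 1 D10 library was at or under 3 reads.

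Among the cross-linking genes other than the members (6 listed), 4 were lower and 0 higher at D28 against D7, beside 8.66% lower and 8.63% higher among all genes tested. Loxl3 was at 15.07 ± 0.40 at D7, 13.20 ± 0.31 at D10 and 12.38 ± 0.09 at D28 (SD, n = 3). From D7 to D28 it fell by 2.69 (limma, standard error 0.19, adjusted p = 3.3e-08). Loxl4 rose by 1.17 on the first day (limma, standard error 0.19, adjusted p = 0.00054) and fell by 2.83 from D10 to D28 (limma, standard error 0.19, adjusted p = 1.1e-08). Loxl2 fell by 2.25 from D7 to D28 (limma, adjusted p = 6.7e-07). These lysyl oxidase relatives were called lower at D28 than at D7, where Lox and Loxl1 had log2 differences of 0.39 and 0.00. The differences between the relatives themselves were not tested.

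Of the elastin-degrading proteases, Mmp12, the macrophage elastase, rose by 2.07 on the first day (limma, standard error 0.40, adjusted p = 0.0019) and stood at 7.21 ± 0.38 at D10 (SD, n = 3). The 5 macrophage markers had a summed log2 level of 10.0 to 10.3 at D7, 9.67 to 10.1 at D8, 9.65 to 10.5 at D10 and 9.71 to 12.1 at D28. Among them the mean of Cd68 was 7.32 at D7 and 9.20 at D10, while those of Csf1r (4.79 and 3.29), Adgre1 (4.98 and 2.80) and Lyz2 (9.85 and 8.73) were lower at D10. At D28, replicate 2 held the highest value of Mmp12 (7.33, beside 5.68 and 6.22), and the call of Ctss for D28 against D7 was lost without D28 replicate 1 (-0.88). Under the study's own rule, the calls of Ctss (log2 difference -1.25) and Mmp12 (1.64) for D28 against D7 were lost. The part of macrophages in these values was not tested. Of the 7 tested, 2 were higher (Mmp12 and Ctsk) and 3 lower at D10 against D7. These last were Mmp2, Ctss and Elane, and Elane was at 0 in every D8 and D10 library and in 1 of D7. The call of Elane (limma, adjusted p = 0.049, groups overlapping) was lost with the replicate block, with a pseudocount of 10, under the study's own rule and without any single library other than D7 replicate 2. Elane was also called higher at D28 (2.03 in every library) than at D10. That call was lost with a pseudocount of 10, and Elane was not tested with a mean log2 value of at least 3. The call of Mmp2 was lost without D7 replicate 3 (-0.84) and without D10 replicate 3 (-0.99). Of the genes of tropoelastin secretion and chaperoning, 1 of 4 was called in any comparison, Fkbp10, which fell by 1.10 from D7 to D28. The TGF-beta ligand gene Tgfb3 fell by 2.01 from D7 to D10 (limma, adjusted p = 6.0e-07) and rose by 3.29 from D10 to D28 (limma, standard error 0.19, adjusted p = 1.3e-09). Over the whole list, 9 genes were called at D8 against D7, 5 at D10 against D8, 19 at D10 against D7, 22 at D28 against D10 and 23 at D28 against D7. The count of 5 was 8 without D8 replicate 2 and 9 without D10 replicate 2. The median log2 differences of the list in these comparisons were -0.04, -0.45, -0.52, 0.13 and -0.46, against 0.03, 0.00, 0.05, -0.10 and -0.03 over all genes. The shares of all genes called were 7.04%, 9.66%, 18.9%, 27.5% and 17.3% in the same order. For Fn1, which encodes fibronectin, the values were identical in all D7 and D8 libraries (19.87), because it held the same rank near the top in each, so its calls rest on ranks. Its call for D28 against D7 (limma, adjusted p = 0.04), counted among the 23, was lost with the replicate block, with no filter, with a pseudocount of 10, with median-of-ratios scaling and without D8 replicate 1, D8 replicate 2 or any single D7 or D28 library.

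**Figure D5:**
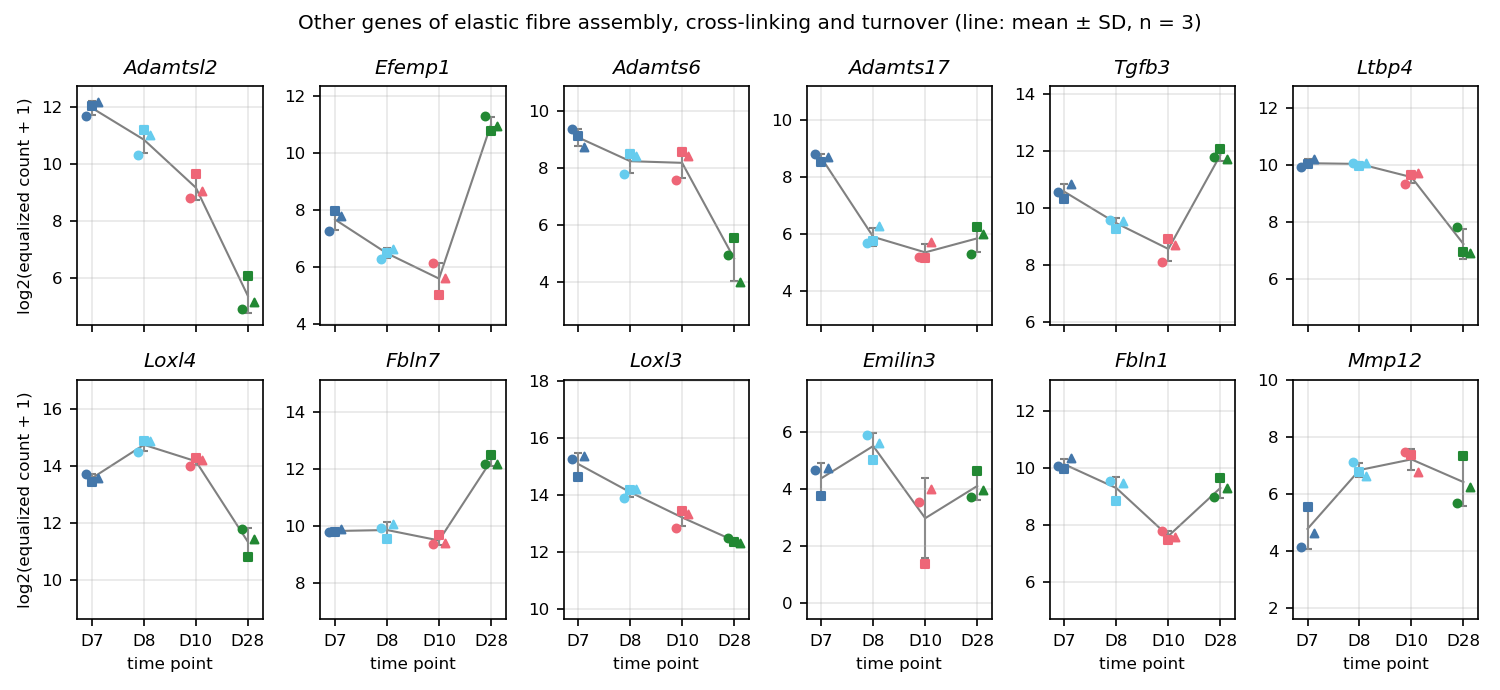
Log2(equalized count + 1) of the 12 pathway genes with the largest called differences; points are libraries (circle, square and triangle for replicates 1, 2 and 3) and lines join the means with SD bars (n = 3), over the same span in each panel. Adamtsl2 descends from 11.95 at D7 to 5.36 at D28, and Efemp1, Tgfb3 and Fbln1 are lowest at D10.

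Markers of other cell types moved beside these results. The 7 fibroblast and perichondrium markers had a summed log2 level of 13.6 to 13.9 at D7, 11.95 to 12.5 at D10 and 13.3 to 13.4 at D28, with 6 of 7 above 3 reads in all libraries of each time point. Among them the mean of Cd34 was 7.03 at D7 and 11.8 at D28. The others had lower means at D28 than at D7, such as Col14a1 (10.9 and 9.21) and Ly6a (12.5 and 10.8). The 8 smooth muscle and myofibroblast markers were at 11.9 to 12.2 at D7, 11.2 to 11.4 at D10 and 11.8 to 11.9 at D28, with 7, 4 and 7 of 8 above 3 reads in all libraries. Single markers of this list also went different ways. Smtn (means 11.5, 11.0 and 10.5) and Des (9.58, 6.87 and 6.14) were lowest at D28, while Acta2 (9.27, 7.70 and 10.6) and Myh11 (4.64, 3.69 and 9.31) were highest there. The 5 skeletal muscle markers went from 11.2 to 11.5 at D7 to between 6.06 and 6.96 at D28, with 5 and 2 of 5 above 3 reads in all libraries. The 5 adipocyte markers were at 12.5 to 12.7 at D7, 11.2 to 11.4 at D10 and 15.8 to 16.3 at D28, with 5, 4 and 5 of 5 above 3 reads in all libraries. The 4 tendon markers were at 10.6 to 10.8 at D7, 9.52 to 10.0 at D10 and 10.5 to 11.0 at D28, with 4 of 4 above 3 reads throughout. Scx had means of 8.25, 8.83 and 6.0 on these days and Mkx of 8.48, 7.45 and 6.0, while Tnmd (7.26, 3.47 and 8.71) and Thbs4 (9.67, 7.87 and 10.04) were lowest at D10. The 5 hypertrophic chondrocyte markers were at 17.7 to 18.1, 17.7 to 18.4 and 16.1 to 16.8 on these days. Among them Col10a1 was highest at D10 (means 17.3, 18.1 and 14.3), Ihh (7.74, 1.76 and 7.89), Ibsp (15.5, 9.15 and 14.0) and Panx3 (7.94, 5.93 and 9.63) were lowest at D10, and Mmp13 was lowest at D8 (12.9). The summed level of the 8 osteoblast markers, 16.9 to 17.0 at D7, 18.9 at D10 and 18.4 to 18.6 at D28, is nearly that of Spp1 alone (means 16.8, 18.9 and 18.4). Of the others, Bglap (3.21 at D7 and 6.46 at D10), Bglap2 (3.18 and 7.50), Dmp1 (5.23 and 8.39) and Phex (4.54 and 5.87) also had higher means at D10. Alpl (13.4 and 10.1), Sp7 (10.6 and 9.25) and Runx2 (10.2 and 9.81) had lower ones. No marker of these lists was at 0 in all libraries of a time point. Their part in the levels of the elastic fibre genes was not tested. The paper describes the harvested cells as homogeneous by surface markers, and the make-up of the pellets was not measured here. From RNA of whole pellets, fewer cells of a type and less RNA per cell cannot be told apart.

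Annotated genes on the opposite strand overlap 6 members. The library kits keep strand, but whether strand was used in counting is not given in the sources used here. Efemp2 has 173 exon bases within the span of Mus81 (mean log2 value 8.804), and Mfap4 has 89 within that of Mapk7 (9.11), a level above Mfap4's own mean at D8, D10 and D28. Lox has 995 within the span of an antisense gene whose mean log2 value was 7.97, against at least 14.72 for Lox in any library. For Eln, Fbn1 and Fbn2 the overlapping genes are not among the listed symbols.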

How the data were processed

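The authors deposited one table of log2 values, the log2 of an equalized read count plus 1, for 28244 gene symbols in 12 libraries (3 at each time point). Upstream, HISAT2 served for alignment, Cufflinks for annotation and HTSeq for counting, and the equalization and log transform were done in Matlab (supplementary methods). The submitters' processing notes also name Trimmomatic 0.36 and GRCm38, while the supplementary methods name hg38. The equalization acted as quantile normalization, so values of abundant genes follow their rank and library totals are not kept. Count tests were not used for this reason.

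The test covered 17674 genes, those reaching a log2 value of 1 in 3 or more libraries. The model (limma 3.58.1, R 4.3.3) had 1 mean per time point and a variance trend on mean expression. Its p-values were two-sided and Benjamini-Hochberg adjusted over all of them. The study's own rule was an alternative, as were other filters, pseudocounts, scalings, thresholds, a replicate block and the omission of each library. The fit was tested on simulated data. Read depth was inferred from the discrete low values, as a median over 562 genes. Those genes may themselves differ between time points, so the depth is approximate. Positions and exon lengths (the union of exons of the basic set) are from GENCODE M21, and upstream sequences are from RefSeq on GRCm38.p6. Members, pathway genes and markers were chosen with earlier results of these data known, and the pathway genes' p-values, adjusted over all genes tested, do not allow for that choice. Named were all members, the 12 pathway genes with the largest called difference in any of the 5 comparisons, and the 5 genes nearest to Eln and to Fbn1 by Pearson correlation among the upper 75% of mean expression. Other pathway genes are named where they complete a count or set a named relative in context, and were chosen after their values were seen. Figures were drawn with Python 3.11.15 and matplotlib 3.10.9.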

Additional observations from a re-analysis of the deposited data

How the results depend on the processing

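The 18 refits cover filters, pseudocount, scaling, variance trend, replicate block and single libraries left out. All 900 values of the 50 log2 differences of members stayed within 1 SD of the spread between replicates. For most refits this was fixed in advance. Filters, variance trend and replicate block leave a difference of group means unchanged, and leaving out 1 library cannot move it that far. Only the pseudocount and scaling refits could have passed the limit, and their largest shift was 0.25. Of the 900 values, 9 changed sign, all of them differences without a call. These were Mfap2 and Loxl1 for D28 against D7, Lox for D10 against D8 and Fbn1 for D10 against D7. The largest shift was 0.37, for Mfap2 without D7 replicate 2. Median-of-ratios scaling moved the median of all genes by 0.11 for D28 against D10.

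Of the counts under other limits, only those furthest in proportion from the main counts are given. With the adjusted p alone and no fold limit, 5 members were called for D8 against D7, and the pathway counts were 19 for D8 against D7, 22 for D10 against D8 and 29 for D10 against D7, where 21.0%, 28.8% and 41.2% of all genes were called. With a log2 difference of at least 2, the members called were 1 for D8 against D7, 3 for D10 against D8, 4 for D10 against D7 and 3 for D28 against D7, and the pathway genes were 2, 1, 6, 12 and 11 in the order of the 5 comparisons (D8 against D7, D10 against D8, D10 against D7, D28 against D10 and D28 against D7), where 2.20%, 3.01%, 7.59%, 11.9% and 7.67% of all genes were called. Leaving out single libraries gave 6 to 7 members for D10 against D8, 4 to 5 for D28 against D7 and no change of the count in the other comparisons. The pathway counts were then 8 to 12, 5 to 9, 17 to 23, 20 to 24 and 21 to 24 in the same order.

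Nothing in the labels ties equal replicate numbers to a shared culture, and same-numbered libraries of different time points did not deviate together (correlations from -0.058 to 0.066 over 18 pairs). With a replicate block the member counts were the same in every comparison (3, 6, 7, 6 and 5), and the pathway counts were 9, 5, 18, 22 and 22. Depth differed between libraries, with the shallowest at D10 and the deepest at D28, and is known only through low values. The lowest member value rested on 18 reads, and the part of depth in the members' values was not tested.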
